A study of Mus musculus with 19 samples.

Results

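The p53 target genes described here are *Cdkn1a*, *Mdm2*, *Ccng1*, *Phlda3*, *Eda2r*, *Zmat3*, *Bax*, *Trp53inp1*, *Sesn2* and *Gdf15*. They were taken by symbol as known direct targets of p53, and all 10 were found among the 31053 genes of the deposited count table. Total liver RNA was profiled by QuantSeq, which reads the 3′ ends of mRNAs, in 19 libraries, each labelled as a biological replicate. All mice were male wild-type C57BL/6 (strain C57BL6J in the labels), with an age given as 6 to 8 weeks. The time point of that age is not stated, and with a course of 12 weeks it cannot be the age of the TAA-treated livers. The PBS group (5 libraries) received PBS, and the labels do not say that these mice received a vector. The AAV-GFP group (TAA_GFP in the labels, 7 libraries) received increasing doses of the liver toxin thioacetamide (TAA) for 12 weeks and, after 10 weeks, a serotype 8 adeno-associated vector (AAV8) expressing eGFP. The AAV-miR-34b/c group (TAA_miR, 7 libraries) received the same TAA course and a combination of AAV8 vectors for miR-34b and miR-34c. Both vectors carry the thyroxine-binding globulin (TBG) promoter, which is active in hepatocytes, and the livers were taken 4 weeks after injection. AAV-GFP against PBS therefore differs by TAA and vector together, and the effects of TAA and of the vector cannot be told apart. AAV-miR-34b/c against AAV-GFP differs by the vector's cargo and by a combination of vectors in place of a single one. The methods do not state whether the total vector dose was the same.

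p53 is a transcription factor that is kept low in resting cells by the ubiquitin ligase Mdm2 and accumulates after DNA damage and other stress. It binds response elements made of a pair of short half-sites and activates genes that stop the cell cycle, limit its own activity, adjust metabolism or lead to apoptosis. The miR-34 genes are themselves p53 targets, and the targets of miR-34 include cell cycle genes, so the pathway lies upstream of the microRNAs that were delivered here. Transcripts of the miR-34 loci were not analysed here.

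Response elements were searched in the RefSeq windows around annotated start sites (GRCm38.p6, 250 bases before to 50 bases after a start), because p53 acts on its targets through them. Windows were found for 8 of the 10 genes (10 windows, among 32851 windows of all genes). The consensus p53 response element, 2 half-sites of 10 bases with no spacer, was slid along both strands, and the best match of each window was kept. For *Cdkn1a*, *Ccng1*, *Mdm2* and *Gdf15*, the genes with a window for which a difference between groups passed the test, 1 window each is shown (the upstream one for *Cdkn1a* and *Gdf15*, which had 2) 5′ to 3′ on the strand of the gene, with the best match in capitals.

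*Cdkn1a*, chr17:29090729-29091028, plus strand: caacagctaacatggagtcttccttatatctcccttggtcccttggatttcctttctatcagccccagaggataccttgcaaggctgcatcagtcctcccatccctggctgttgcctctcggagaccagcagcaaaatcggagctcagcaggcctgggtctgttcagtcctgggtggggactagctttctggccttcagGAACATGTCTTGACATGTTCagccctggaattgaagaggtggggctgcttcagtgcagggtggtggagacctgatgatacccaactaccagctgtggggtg

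*Ccng1*, chr11:40755237-40755536, minus strand: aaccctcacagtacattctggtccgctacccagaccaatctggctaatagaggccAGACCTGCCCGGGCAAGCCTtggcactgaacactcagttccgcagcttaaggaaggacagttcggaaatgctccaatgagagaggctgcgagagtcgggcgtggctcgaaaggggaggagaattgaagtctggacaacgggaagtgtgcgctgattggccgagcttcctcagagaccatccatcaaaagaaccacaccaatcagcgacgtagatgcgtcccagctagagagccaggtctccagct

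*Mdm2*, chr10:117710709-117711008, minus strand: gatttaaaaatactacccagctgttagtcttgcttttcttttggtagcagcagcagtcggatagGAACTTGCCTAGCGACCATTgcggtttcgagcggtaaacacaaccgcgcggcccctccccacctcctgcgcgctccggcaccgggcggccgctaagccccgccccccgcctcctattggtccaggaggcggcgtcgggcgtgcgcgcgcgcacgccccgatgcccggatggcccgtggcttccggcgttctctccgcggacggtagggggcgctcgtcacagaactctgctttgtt

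*Gdf15*, chr8:70632407-70632706, minus strand: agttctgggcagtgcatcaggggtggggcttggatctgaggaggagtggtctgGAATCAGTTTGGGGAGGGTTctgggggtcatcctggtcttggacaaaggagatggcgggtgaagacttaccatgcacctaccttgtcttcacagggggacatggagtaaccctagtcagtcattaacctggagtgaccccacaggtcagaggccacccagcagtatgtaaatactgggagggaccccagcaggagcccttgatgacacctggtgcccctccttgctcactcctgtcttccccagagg

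The *Cdkn1a* element matched the consensus at 19 of 20 bases and lay 51 to 32 bases before the start of this window, just upstream of the gene as annotated. A second *Cdkn1a* start lies downstream, and the same element was 2841 to 2822 bases before it. The *Ccng1* element also matched at 19 of 20 bases, 195 to 176 bases before the start. A best match with at most 1 mismatch was present in 0.0883% of all windows. The *Bax* window (chr7:45466849-45467148, minus strand) held AGCATATCCCAGGCAAGCTT, with 17 of 20 bases matched, and 6.29% of all windows held an element at least as close. The best matches of *Mdm2*, both *Gdf15* windows, *Phlda3*, *Sesn2* and the downstream *Cdkn1a* window reached 15 of 20 bases, as did those of 76.6% of all windows, and that of *Eda2r* reached 14. Elements outside these windows, such as those known in introns, were not searched.

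**Figure D1:**
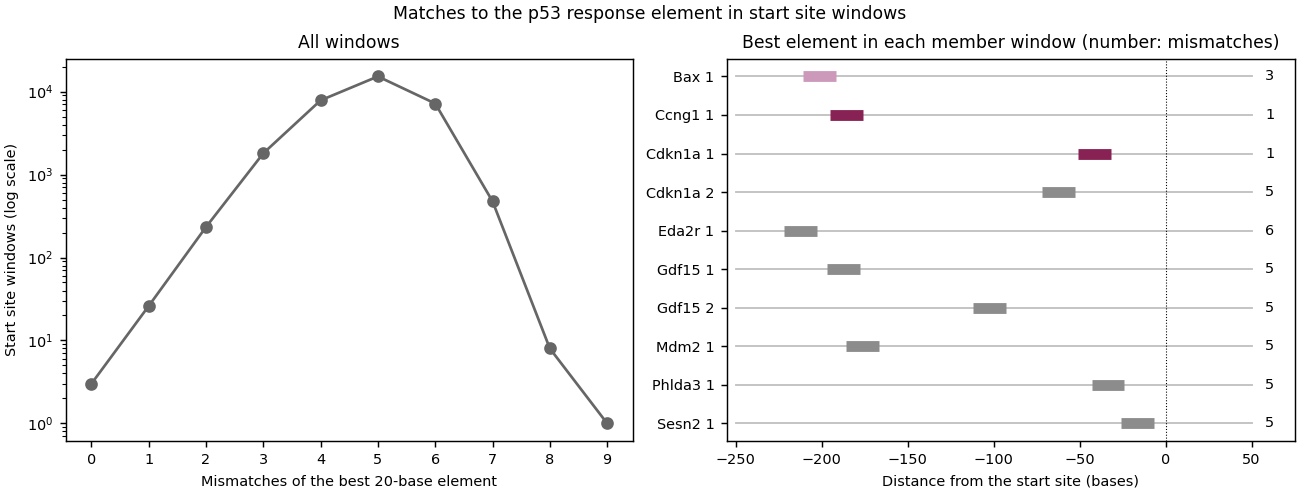
Left, number of start site windows (log scale) by the mismatches of their best p53 element. Right, position of the best element in each window of the p53 target genes relative to the start site in bases, with its number of mismatches; *Cdkn1a* and *Ccng1* held an element with 1 mismatch and *Bax* one with 3.

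The mature microRNAs share the seed (bases 2 to 8, in capitals) by which they pair with 3′ untranslated regions (UTRs), shown here for miR-34b-5p, which was delivered, and miR-34a-5p of the same family.

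miR-34a-5p: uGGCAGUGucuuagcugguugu

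miR-34b-5p: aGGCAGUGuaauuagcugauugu

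The match to this seed, CACTGCC, was searched in the longest annotated 3′ UTR of each gene. It was absent from those of 9 of the 10 p53 target genes, which ranged from 150 bases for *Gdf15* to 6692 bases for *Zmat3*. The 3′ UTR of *Bax* (224 bases) held 1 match, in the 3′ UTR on the minus strand of chr7:45461837-45461865, ctgaggcctccCACTGCCttggactgtgt. Over all genes with an annotated 3′ UTR, 14.3% of 21028 held at least 1 match.

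Library totals ranged from 2214073 to 5208405 counts, with medians of 2858900 in PBS, 3116304 in AAV-GFP and 3040202 in AAV-miR-34b/c. Levels are given as CPM, the counts of a gene scaled to a common library size with TMM factors. The libraries fell on either side of a gap in the share of mitochondrial counts. It was 3.73% to 5.65% in the 5 PBS libraries, 4.83% to 5.50% in AAV-GFP libraries 5, 6 and 7, and 3.71% to 3.73% in AAV-miR-34b/c libraries 1 and 2. It was 7.85% to 9.41% in the other 4 AAV-GFP and 8.21% to 10.8% in the other 5 AAV-miR-34b/c libraries. Values within a side are given beside results that they bear on. Comparisons with PBS on the high side, where PBS had no library, could not be made. On the first principal component (31.0% of the variance) AAV-GFP libraries 6 and 7 and AAV-miR-34b/c libraries 1 and 2 lay with PBS. On the second (13.3%) AAV-miR-34b/c libraries 1 and 2 lay far from PBS, at -45.7 and -50.4 against 4.47 to 26.7. In addition, 6 pairs of libraries within groups were closer to each other than the remaining 46 pairs, with a coefficient of variation beyond counting error of 0.0784 to 0.153 against 0.207 to 0.464. These were PBS 1 and 4, PBS 3 and 5, AAV-GFP 1 and 2, and AAV-miR-34b/c 1 and 2, 3 and 4, and 5 and 7. They differed by more than counting noise and were kept as separate samples, but whether they come from separate animals could not be settled, and p-values are too small if they do not. On the low mitochondrial side AAV-miR-34b/c libraries 1 and 2, a close pair, were the only ones of their group.

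Livers of AAV-GFP mice had more *Cdkn1a*, *Gdf15* and *Trp53inp1* transcript than PBS livers, by about an order of magnitude for *Cdkn1a*, and less *Mdm2*. Of the 10 genes, 8 passed the count filter, and 4 of these 8 changed (3 higher, 1 lower, edgeR, adjusted p under 0.05). Over all 9522 genes tested, 12.7% changed, with 7.54% higher and 5.19% lower. The median log2 fold change was -0.16 over the 8 genes and -0.01 over all genes, and of the 8 genes 4 lay above 0 and 4 below. In bulk liver, fewer cells of a type and less RNA per cell cannot be told apart.

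**Figure D2:**
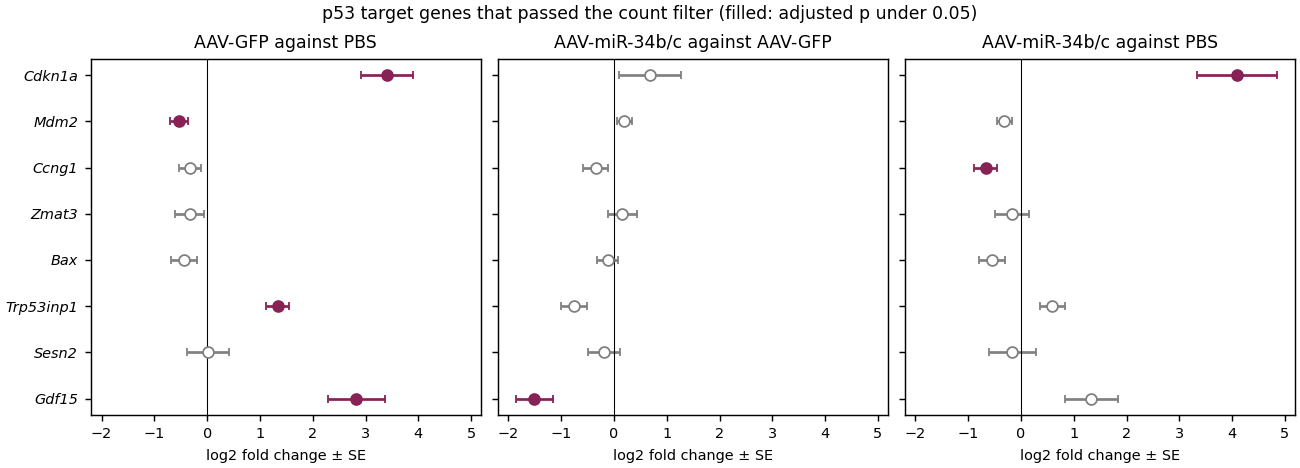
Log2 fold change (x axis) with its SE for the 8 p53 target genes that passed the count filter, in each comparison; filled points have an adjusted p under 0.05. *Cdkn1a*, *Trp53inp1* and *Gdf15* lie right of 0 and *Mdm2* left of 0 in AAV-GFP against PBS, and *Gdf15* alone is filled in AAV-miR-34b/c against AAV-GFP.

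*Cdkn1a* encodes p21, the cyclin-dependent kinase inhibitor through which p53 arrests the cell cycle. Its level in the 5 PBS livers was 1.73, 3.64, 7.56, 7.78 and 11.4 CPM (mean 6.41 ± 3.78 SD, n = 5). The 7 AAV-GFP livers had 18.4 CPM at the lowest, 43.4 at the median and 163 at the highest (67.3 ± 49.8, n = 7). Every AAV-GFP liver lay above every PBS liver. The fold was 10.6 (log2 fold change 3.40 ± 0.50 SE, adjusted p = 0.000240), and among the 3 AAV-GFP libraries with a low mitochondrial share the log2 fold change against PBS was 2.42 (adjusted p = 0.00151).

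The AAV-miR-34b/c livers were more spread, with 5.95 CPM at the lowest, 93.9 at the median and 240 at the highest (108 ± 84.6, n = 7). Libraries 5 and 7, one of the close pairs, had 11.1 and 5.95 CPM (31 and 17 counts) and lay within the PBS range, while the other 5 lay between 89.0 and 240 CPM and above every PBS liver. Against PBS the log2 fold change was 4.09 ± 0.76 (adjusted p = 0.00185), a fold of 17.0. Within the low mitochondrial libraries it was 3.85 (adjusted p = 6.71e-07), with only AAV-miR-34b/c libraries 1 and 2, a close pair. If these share an animal, p-values on that side are too small. With limma-voom and sample quality weights the difference from PBS was 3.25 ± 1.29, with an adjusted p of 0.0505. Against AAV-GFP it was 0.68 ± 0.58 (adjusted p = 0.657), with 1 AAV-miR-34b/c liver above, 2 below and 4 within the AAV-GFP range. Within the low mitochondrial libraries, AAV-miR-34b/c 1 and 2 (93.9 and 89.0 CPM) were above AAV-GFP 5, 6 and 7 (41.7, 41.4 and 18.4 CPM), with a log2 fold change of 1.43 (adjusted p = 0.00739). Within the high mitochondrial libraries it was 0.31 (adjusted p = 0.841).

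*Trp53inp1* encodes a stress-induced protein that acts in the p53 response and in autophagy. In PBS its level was tightly grouped at 36.1, 33.4, 37.4, 30.9 and 39.7 CPM (35.5 ± 3.44, n = 5). In AAV-GFP it ran from 48.5 through a median of 103 to 112 CPM (89.2 ± 26.2, n = 7). All 7 AAV-GFP livers were above all PBS livers, with 5 of them close together at 98.5 to 112 CPM and libraries 4 and 7 lower at 54.2 and 48.5. The fold was 2.52 (log2 fold change 1.34 ± 0.22, adjusted p = 0.000662), and 1.28 on the log2 scale within the low mitochondrial libraries (adjusted p = 0.00481).

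In AAV-miR-34b/c *Trp53inp1* had 26.2 CPM at the lowest, 63.7 at the median and 71.1 at the highest (53.3 ± 18.8, n = 7), between the levels of the other 2 groups. As for *Cdkn1a*, libraries 5 and 7 stood low, here at 26.2 and 29.4 CPM and below every PBS liver, whereas the other 5 were above every PBS liver. The difference from AAV-GFP was -0.76 ± 0.25 (log2, adjusted p = 0.108) and that from PBS was 0.59 ± 0.24 (adjusted p = 0.0843), neither of which passed the test. Within the low mitochondrial libraries the difference from PBS was 0.91 (adjusted p = 0.00950), from 2 AAV-miR-34b/c libraries that are a close pair. The difference also passed the test without AAV-miR-34b/c library 5 or 7 (lowest adjusted p 0.0290). Against AAV-GFP the adjusted p fell below the threshold within the high mitochondrial libraries (-0.95, adjusted p = 0.0435) and not within the low ones (-0.36, adjusted p = 0.680). It also did so with scaling by library size only (-0.98, adjusted p = 0.0170), which moved the median of all genes to -0.20, with limma-voom (-0.90, adjusted p = 0.0314) and without the TAA libraries that lay with PBS on the first principal component (-0.997, adjusted p = 0.0213), so that 4 of 12 alternatives passed the test (range of adjusted p 0.0170 to 0.680).

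*Gdf15* encodes a secreted protein of the TGF-β superfamily that is induced by several kinds of cell stress, p53 activation among them, and signals to the brainstem. In PBS it was 13.5, 11.9, 101, 11.4 and 61.2 CPM (39.8 ± 40.2, n = 5). The high values belonged to libraries 3 and 5, a close pair. In AAV-GFP the level was 77.4 CPM at the lowest, 293 at the median and 505 at the highest (278 ± 148, n = 7), and 6 of 7 AAV-GFP livers were above all PBS livers. The fold was 7.10 (log2 fold change 2.83 ± 0.54, adjusted p = 0.00264), and within the low mitochondrial libraries the log2 fold change was 3.08 (adjusted p = 0.00660). Without PBS library 3 it was 3.55 (adjusted p = 0.000678), and the 12 fits without 1 library ran from 2.60 to 3.55.

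*Gdf15* was the only gene of the group that changed between the vectors. Its level in AAV-miR-34b/c was 49.3 CPM at the lowest, 93.4 at the median and 159 at the highest (98.3 ± 45.1, n = 7), which was 0.350 times that in AAV-GFP (log2 fold change -1.51 ± 0.35, adjusted p = 0.0195). The groups overlapped, since AAV-GFP libraries 4 and 7 (147 and 77.4 CPM) lay within the AAV-miR-34b/c range. The difference was present among the low mitochondrial libraries (-2.02, adjusted p = 0.0257), with AAV-miR-34b/c libraries 1 and 2, a close pair, alone on their side. It was also present among the high ones (-1.21, adjusted p = 0.0298). With all 3 groups in one fit the adjusted p was 0.0543 and with the close pairs summed 0.167, at nearly the same log2 fold changes of -1.50 and -1.51. Against PBS the value was 1.33 ± 0.51 (adjusted p = 0.0675), with 3 of 7 AAV-miR-34b/c livers above all PBS livers and 4 within their range. Without PBS library 3, the highest of the PBS group, it was 2.03 (adjusted p = 0.0113), and without AAV-miR-34b/c library 1 it was 1.41 (adjusted p = 0.0489). The difference from PBS also passed the test in 4 of 11 alternatives, at 1.34 with no count filter, 1.91 with limma-voom, 1.85 with the replicate number as a block and 1.44 without the TAA libraries that lay with PBS on the first principal component (range of adjusted p over the 11 alternatives 0.00476 to 0.317). It was 1.06 within the low mitochondrial libraries (adjusted p = 0.317).

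In the comparison of the vectors, 1 of the 8 tested p53 target genes was thus changed, against 3.36% of all 9252 genes tested (1.95% higher and 1.42% lower). The median log2 fold change of the 8 genes was -0.15, and that of all genes -0.01. In AAV-miR-34b/c against PBS, 2 of 8 changed (*Cdkn1a* higher, *Ccng1* lower), against 21.9% of 9290 genes (12.2% higher and 9.75% lower), which is near the share of the 8 genes. There the medians were -0.16 and 0.02. The 3 comparisons share groups, so they are not independent of each other.

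**Figure D3:**
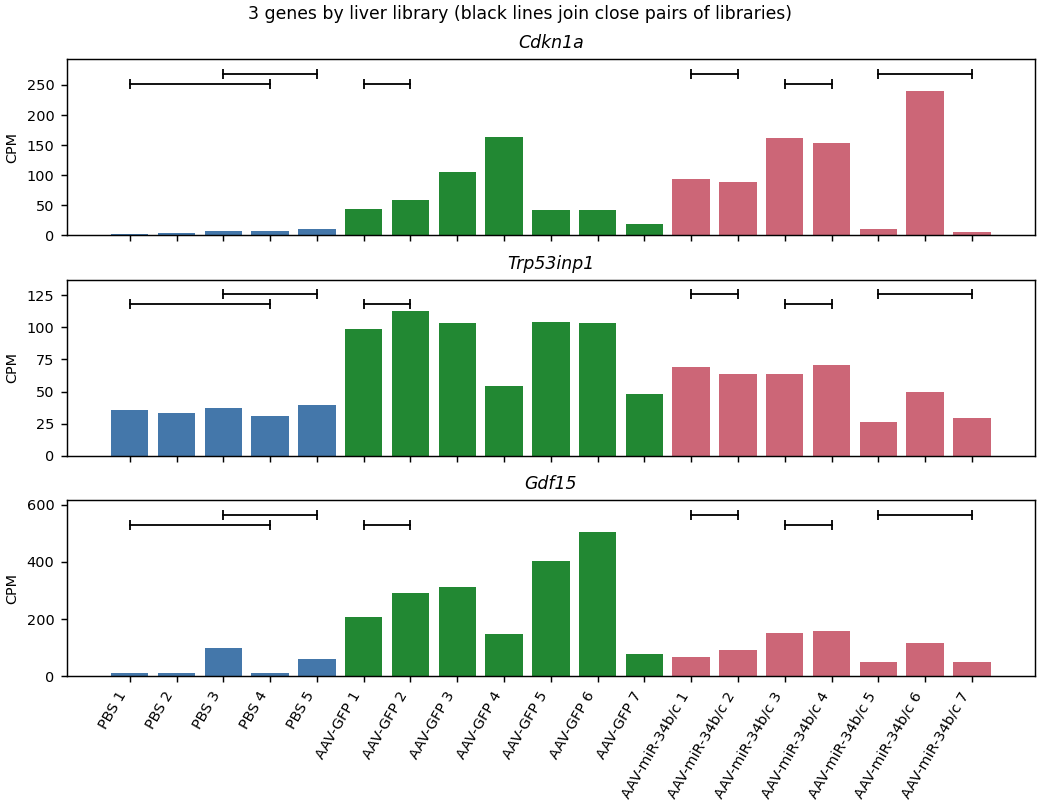
CPM (y axes) of *Cdkn1a*, *Trp53inp1* and *Gdf15* in each of the 19 libraries (x axis, coloured by group); black lines join the 6 close pairs of libraries. AAV-miR-34b/c libraries 5 and 7 are the lowest of their group for all 3 genes, and AAV-GFP library 7 is the lowest of its group for all 3.

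Deviations of these 3 genes from their group means were then compared. AAV-GFP library 7 was the lowest of its group for each of them, at 18.4, 48.5 and 77.4 CPM, and AAV-miR-34b/c libraries 5 and 7 were the lowest of theirs. Other libraries did not follow one order. AAV-GFP library 4 was the highest of its group for *Cdkn1a* (163 CPM) and next to the lowest for *Trp53inp1* (54.2 CPM) and *Gdf15* (147 CPM). AAV-miR-34b/c library 6 was the highest for *Cdkn1a* (240 CPM), with only libraries 5 and 7 below its *Trp53inp1* level (49.4 CPM). Across the 19 libraries, after subtraction of the group means, Pearson's r was 0.585 for *Cdkn1a* with *Trp53inp1*, 0.494 for *Cdkn1a* with *Gdf15* and 0.635 for *Trp53inp1* with *Gdf15*. These values are descriptions, since the points share libraries and include the close pairs. Over the other 18 pairs of the 7 genes with a mean above 3 log2 CPM, r ran from -0.323 (*Zmat3* with *Trp53inp1*) to 0.306 (*Zmat3* with *Bax*).

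*Mdm2*, which encodes the ubiquitin ligase that degrades p53 and is induced by it, went the other way. PBS livers had 44.0, 46.3, 40.0, 34.5 and 41.8 CPM (41.3 ± 4.48, n = 5). AAV-GFP livers had 21.7 at the lowest, 28.1 at the median and 38.7 at the highest (28.7 ± 5.54, n = 7), and 6 of 7 were below all PBS livers. The decrease was small, at -0.53 ± 0.17 (log2, adjusted p = 0.0484). It lay close to the threshold: 11 of the 12 fits that left out 1 library, all but that without AAV-GFP library 7, gave an adjusted p above 0.05 (range over the 12 fits 0.0152 to 0.116). Within the low mitochondrial libraries the difference was -0.51 (adjusted p = 0.318).

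In AAV-miR-34b/c *Mdm2* was 29.5 CPM at the lowest, 32.6 at the median and 37.1 at the highest (33.0 ± 2.88, n = 7), and all 7 livers lay within the AAV-GFP range. The log2 fold change was 0.20 ± 0.15 against AAV-GFP (adjusted p = 0.604) and -0.32 ± 0.14 against PBS (adjusted p = 0.118).

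*Ccng1* encodes cyclin G1, a p53 target that recruits a phosphatase to Mdm2. In PBS it was 28.1, 27.8, 22.7, 27.7 and 25.5 CPM (26.4 ± 2.29, n = 5). In AAV-GFP it ran from 12.3 through a median of 18.4 to 28.4 CPM (20.99 ± 6.14, n = 7) and in AAV-miR-34b/c from 10.8 through 16.1 to 24.7 CPM (16.7 ± 5.22, n = 7). The order was PBS, AAV-GFP, AAV-miR-34b/c, and neighbours in it did not differ beyond the spread (-0.33 ± 0.21, adjusted p = 0.300, and -0.35 ± 0.23, adjusted p = 0.520). Between its ends the log2 fold change was -0.67 ± 0.21 (adjusted p = 0.0344), with 6 of 7 AAV-miR-34b/c livers below all PBS livers. Within the low mitochondrial libraries this difference was -0.20 (adjusted p = 0.711), and the adjusted p stayed under 0.05 only in the 4 of 12 single-library omissions that left out PBS 3 or AAV-miR-34b/c 1, 2 or 7 (range over the 12 fits 0.00944 to 0.0776). The *Cdkn1a* and *Ccng1* windows, both with an element 1 base from the consensus, thus belonged to genes that moved in opposite directions in this comparison.

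*Bax*, the pore-forming protein of the mitochondrial path to apoptosis, did not pass the test in any comparison. PBS livers had 7.28, 19.5, 13.3, 12.6 and 14.2 CPM (13.4 ± 4.36, n = 5). The range was 7.29 to 12.5 CPM in AAV-GFP (median 9.84) and 7.36 to 12.9 in AAV-miR-34b/c (median 8.22), so that every TAA-treated liver lay within the PBS range. The log2 fold change was -0.44 ± 0.25 (adjusted p = 0.248) for AAV-GFP and -0.54 ± 0.25 (adjusted p = 0.122) for AAV-miR-34b/c against PBS. Between the vectors it was -0.12 ± 0.20 (adjusted p = 0.853), and 0.043 within the high mitochondrial libraries (adjusted p = 0.948). Among the 10 genes *Bax* was the one with a miR-34 seed match.

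*Zmat3*, an RNA-binding protein that acts on splicing and transcript stability, had 8.67, 14.6, 9.79, 8.51 and 5.27 CPM in PBS (9.36 ± 3.36, n = 5). It ranged from 4.97 to 10.1 CPM in AAV-GFP (median 8.10) and from 3.59 to 14.3 in AAV-miR-34b/c (median 7.53), and the 3 groups overlapped. The log2 fold changes were -0.33 ± 0.27 for AAV-GFP and -0.17 ± 0.33 for AAV-miR-34b/c against PBS, and 0.15 ± 0.28 between the vectors (adjusted p = 0.436, 0.747 and 0.859). The difference between the vectors was -0.76 within the low mitochondrial libraries (adjusted p = 0.605).

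*Sesn2*, a leucine sensor that restrains mTORC1, was low, with 2 to 26 counts in a library. PBS livers had 7.28, 1.98, 4.89, 3.89 and 0.811 CPM (3.77 ± 2.53, n = 5). The AAV-GFP livers (2.97 to 4.67 CPM, median 3.77) all lay within that range, as did the AAV-miR-34b/c livers (1.42 to 5.29 CPM, median 3.62). The log2 fold changes were 0.02 ± 0.40, -0.16 ± 0.45 and, between the vectors, -0.19 ± 0.30 (adjusted p = 0.982, 0.824 and 0.844). AAV-miR-34b/c was at 0.17 against PBS and 0.043 against AAV-GFP within the low mitochondrial libraries (adjusted p = 0.921 and 0.989). Each SE was larger than its difference.

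*Phlda3*, which competes with Akt for membrane lipids, and *Eda2r*, a receptor of the tumour necrosis factor family, did not pass the count filter. *Phlda3* had 3, 2, 5, 2 and 6 counts in PBS, 4 to 12 (median 10) in AAV-GFP and 0 to 5 (median 1) in AAV-miR-34b/c. In CPM, 6 of 7 AAV-miR-34b/c livers were below all AAV-GFP livers, and the difference of the mean log2 CPM was -1.36 (two-sided exact permutation test, p = 0.00117, unadjusted and 1 of 30 such tests). That test took each library as separate, the close pairs included. Against PBS the permutation p was 0.0619 for AAV-GFP and 0.0997 for AAV-miR-34b/c. Between the vectors, with no filter on low counts, the edgeR log2 fold change was -1.95 ± 0.57, and its adjusted p of 0.0762 did not pass the threshold.

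*Eda2r* had 1, 0, 0, 1 and 0 counts in PBS, 0 to 17 (median 3) in AAV-GFP and 0 to 6 (median 1) in AAV-miR-34b/c. Counts of 8 or more occurred only in AAV-GFP libraries 2, 4 and 5, and AAV-GFP libraries 3 and 6 had none. With PBS at the floor of detection no fold is given, and neither comparison with PBS passed the test without the filter (adjusted p = 0.0623 and 0.265).

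**Figure D4:**
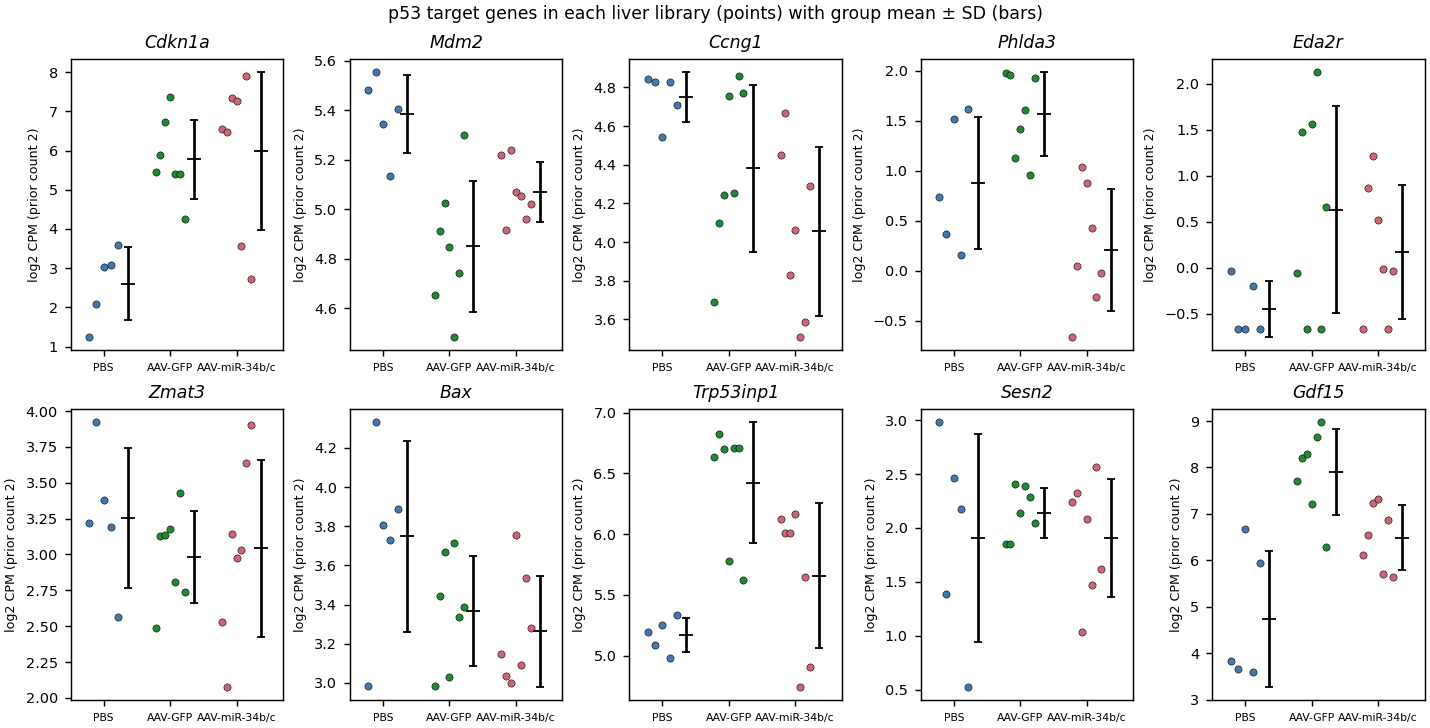
Log2 CPM (y axes, prior count 2) of the 10 p53 target genes in each liver library (points) of the PBS, AAV-GFP and AAV-miR-34b/c groups, with the group mean and SD beside them. *Cdkn1a* and *Trp53inp1* show no overlap between PBS and AAV-GFP, *Bax*, *Zmat3* and *Sesn2* overlap in all groups, and *Phlda3* and *Eda2r* are at a few counts.

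The genes that act on p53 were then examined. *Trp53* itself was low, with 3 to 41 counts in a library, and its log2 fold change was 0.84 ± 0.48 for AAV-GFP against PBS (adjusted p = 0.247), 0.56 ± 0.39 for AAV-miR-34b/c against PBS (adjusted p = 0.311) and -0.29 ± 0.41 between the vectors (adjusted p = 0.816). Of 17 listed regulators, 15 were tested in AAV-GFP against PBS and 1 rose, *Crebbp* (1.42 ± 0.32, adjusted p = 0.00756), an acetyltransferase that modifies p53. In AAV-miR-34b/c against PBS 3 of 14 rose, *Crebbp* (1.59 ± 0.37, adjusted p = 0.00713), the deubiquitinase *Usp7* (0.52 ± 0.17, adjusted p = 0.0394) and the kinase *Hipk2* (1.54 ± 0.53, adjusted p = 0.0462), and 1 to 3 rose in the 12 fits without 1 library, of which 9 did not call *Usp7* and 9 did not call *Hipk2*. Between the vectors none of 14 passed the test, and the median log2 fold change was -0.02. The shares changed were thus 6.67%, 21.4% and 0%, against 12.7%, 21.9% and 3.36% of all genes in AAV-GFP against PBS, in AAV-miR-34b/c against PBS and between the vectors. The summed level of the regulators went with the mitochondrial split. It was 208 to 304 CPM in PBS and 205 to 255 CPM in the low mitochondrial TAA libraries, and 295 to 412 CPM in the high ones. Within the low mitochondrial libraries none of 14 regulators passed the test in AAV-GFP and none of 15 in AAV-miR-34b/c against PBS, where 1.88% and 6.54% of all genes did, and *Crebbp* was at 0.48 (adjusted p = 0.433) and 0.034 (adjusted p = 0.970). With the close pairs summed none of 15 passed in either comparison with PBS, where 2.26% and 3.12% of all genes did. In AAV-GFP against PBS 3 of 15 rose and 1 fell with limma-voom and with the replicate block, where 28.2% and 33.3% of all genes changed. The same counts were found without the TAA libraries that lay with PBS on the first principal component (31.1% of all genes). *Mdm4*, the partner of Mdm2, was at 0.15 ± 0.44, 0.15 ± 0.45 and -0.01 ± 0.41 in the order in which *Trp53* is given.

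Of 50 further p53 targets, 30 were tested in AAV-GFP against PBS. In that comparison 7 rose and none fell (median log2 fold change 0.06), which is 23.3% of those tested against 12.7% of all genes. Without 1 library 4 to 8 rose and 0 to 1 fell, with 4 higher without PBS library 3 or AAV-GFP library 2 or 4. With the close pairs summed 3 of 36 rose, where 2.26% of all genes changed. With limma-voom 7 of 30 rose and 3 fell, and with the replicate block 8 of 29 rose and 2 fell. Without the TAA libraries that lay with PBS on the first principal component 7 of 29 rose and 2 fell. In these 3 fits 28.2%, 33.3% and 31.1% of all genes changed. The smallest adjusted p-values were those of *Ephx1*, the microsomal epoxide hydrolase that also responds to xenobiotics (1.32 ± 0.16, adjusted p = 3.57e-05), the antiproliferative *Btg2* (2.22 ± 0.31, adjusted p = 0.000128), the ferrireductase *Steap3* (1.13 ± 0.22, adjusted p = 0.00307) and the glutaminase *Gls2* (0.71 ± 0.17, adjusted p = 0.0129). Between the vectors 3 of 31 fell and none rose, *Ephx1* (-1.19 ± 0.14, adjusted p = 7.66e-05), the sulfatase *Sulf2* (-1.29 ± 0.29, adjusted p = 0.0154) and the kinase *Plk3* (-0.80 ± 0.20, adjusted p = 0.0328), with a median of -0.22 over the list. This is 9.68% against 3.36% of all genes, and *Plk3* was not called in 9 of 14 fits without 1 library (highest adjusted p 0.0771). With the close pairs summed 1 of 39 fell, where 0.832% of all genes changed. By library size only 6 of 31 fell and with limma-voom 5 of 31, where 6.74% and 8.79% of all genes changed. Without the TAA libraries that lay with PBS on the first principal component 6 of 30 fell, where 8.25% of all genes changed. For *Ephx1* all 7 AAV-miR-34b/c livers were below all AAV-GFP livers. In AAV-miR-34b/c against PBS 4 of 30 rose and 3 fell, 23.3% against 21.9% of all genes, but these counts moved with single libraries. Without 1 library 1 to 4 rose and 0 to 5 fell, with 1 and 0 without PBS library 1, and with the close pairs summed none of 38 passed the test, where 3.12% of all genes did. The 4 with the smallest adjusted p there were *Btg2* (1.78 ± 0.37, adjusted p = 0.00383), the BH3-only gene *Bbc3* (1.48 ± 0.41, adjusted p = 0.0178), *Gls2* (0.48 ± 0.14, adjusted p = 0.0258) and, downward, *Tob1* (-0.79 ± 0.25, adjusted p = 0.0321). Of these, *Tob1* was not called in 7, *Gls2* in 5, *Bbc3* in 1 and *Btg2* in 0 of the 12 fits without 1 library. On the low mitochondrial side 2 of 31 further targets rose in AAV-GFP against PBS, *Ephx1* (1.21, adjusted p = 0.00132) and *Btg2* (2.11, adjusted p = 0.00108), where 1.88% of all genes changed. There 2 of 31 also rose in AAV-miR-34b/c against PBS and none fell, where 6.54% of all genes changed, and *Tob1* was at -0.20 (adjusted p = 0.721). Between the vectors *Ephx1* was lower on both sides (-1.38, adjusted p = 0.00361, on the low and -1.16, adjusted p = 4.62e-05, on the high side), whereas *Sulf2* and *Plk3* passed the test on the high side and not on the low one (-0.24, adjusted p = 0.906, and -0.088, adjusted p = 0.932).

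p21 lowers the transcription of many cell cycle genes, and 32 of these were listed. In AAV-GFP against PBS 2 of 17 tested rose, the topoisomerase *Top2a* (2.36 ± 0.49, adjusted p = 0.00499) and *Birc5*, which encodes survivin (2.29 ± 0.53, adjusted p = 0.00945), and the cyclin *Ccne2* fell (-1.23 ± 0.30, adjusted p = 0.0126). *Top2a* and *Birc5* were thus higher in the same comparison as *Cdkn1a*. AAV-GFP library 4, the highest for *Cdkn1a*, stood apart with a summed level of 392 CPM for the list, against 135 to 175 CPM in the other 6 AAV-GFP libraries and 116 to 151 CPM in PBS. Without it the same 3 genes passed the test, with *Top2a* at 1.90 (adjusted p = 0.00777) and *Birc5* at 1.87 (adjusted p = 0.0187). On the low mitochondrial side only *Birc5* passed (2.09, adjusted p = 0.0372), with *Top2a* at 1.49 (adjusted p = 0.138). Against PBS the AAV-miR-34b/c livers had the same 3 genes changed in the same directions, and *Pcna*, the sliding clamp of DNA replication, fell as well (-1.02 ± 0.25, adjusted p = 0.0104). Within the low mitochondrial libraries 2 of 16 rose in this comparison and none fell, where 6.54% of all genes changed. The decreases of *Ccne2* and *Pcna* thus did not pass the test there. With the close pairs summed 1 of 21 rose and 1 fell, where 3.12% of all genes changed. Between the vectors none of 16 passed the test, with a median log2 fold change of -0.38. That median was -0.19 without AAV-GFP library 4, and 0.35 within the low and -0.74 within the high mitochondrial libraries. On the high side 1 of 16 fell, where 6.58% of all genes changed. By library size only and with limma-voom 1 of 16 fell, where 6.74% and 8.79% of all genes changed. Without the TAA libraries that lay with PBS on the first principal component 3 of 16 fell, where 8.25% of all genes changed. The shares changed were 17.6% in AAV-GFP and 26.7% in AAV-miR-34b/c against PBS, where 12.7% and 21.9% of all genes changed, and 0% against 3.36% between the vectors.

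*Gdf15*, *Sesn2* and *Trp53inp1* can also be induced through other stress pathways, so 25 genes of the ATF4 and integrated stress response were counted. In AAV-GFP against PBS 4 of 18 rose and 1 fell. The 4 with the smallest adjusted p were the transcription factor *Atf5* (1.36 ± 0.26, adjusted p = 0.00277), *Ppp1r15a*, which encodes the phosphatase subunit GADD34 (1.52 ± 0.33, adjusted p = 0.00688), the amino acid transporter subunit *Slc3a2* (0.82 ± 0.18, adjusted p = 0.00778) and, downward, asparagine synthetase *Asns* (-2.04 ± 0.51, adjusted p = 0.0133). Between the vectors 1 of 16 changed, *Ppp1r15a*, which fell (-1.02 ± 0.22, adjusted p = 0.0134) in the same comparison as *Gdf15*. In AAV-miR-34b/c against PBS 3 of 17 rose and 1 fell, among them *Atf5* (1.57 ± 0.29, adjusted p = 0.00191). The shares changed in these 3 comparisons were 27.8%, 6.25% and 23.5% of the list, beside 12.7%, 3.36% and 21.9% of all genes. Among the low mitochondrial libraries none of 18 passed the test in AAV-GFP against PBS, where 1.88% of all genes did, with *Atf5* at 0.98 (adjusted p = 0.0600), and *Ppp1r15a* was at -0.55 (adjusted p = 0.675) between the vectors, against -1.27 (adjusted p = 0.0102) on the high side. With the close pairs summed 1 of 18 rose and none fell in each comparison with PBS. There 2.26% (AAV-GFP) and 3.12% (AAV-miR-34b/c) of all genes changed. Between the vectors none of 18 passed with the close pairs summed, where 0.832% of all genes did.

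**Figure D5:**
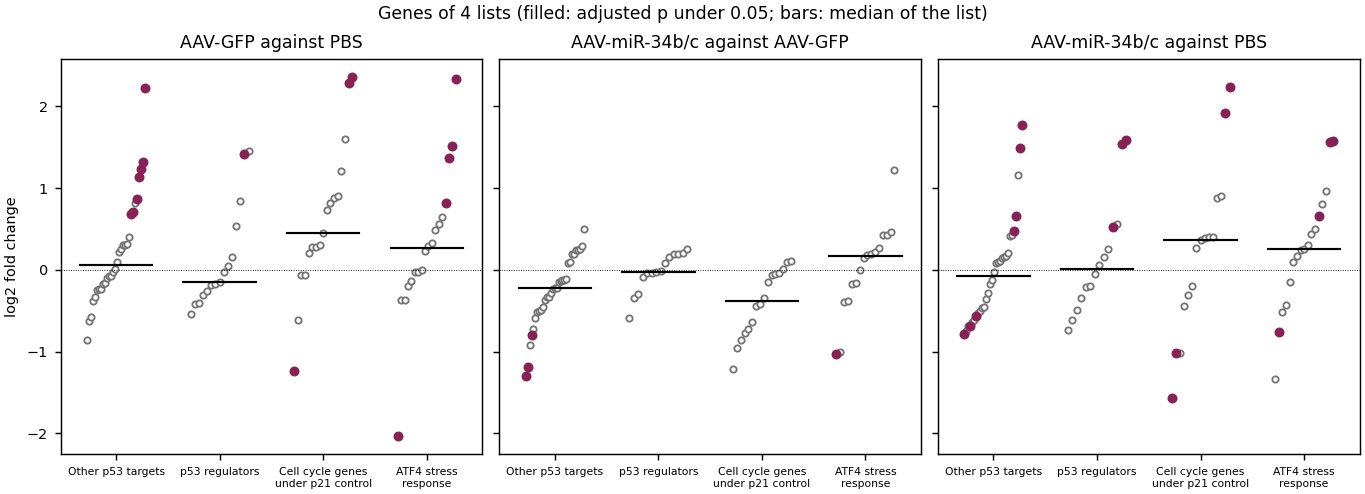
Log2 fold change (y axis) of the tested genes of 4 lists in each comparison (filled points, adjusted p under 0.05; bars, median of the list). The filled points of the further p53 targets are all above 0 in AAV-GFP against PBS and all below 0 in AAV-miR-34b/c against AAV-GFP.

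Markers of some cell types in liver also differed between groups. The summed level of 13 hepatocyte markers overlapped between groups, at 100431 to 118616 CPM in PBS, 88029 to 104461 in AAV-GFP and 93892 to 143872 in AAV-miR-34b/c, and none of them was at 0. In AAV-GFP against PBS and between the vectors 1 of the 13 was higher. The summed level of 8 neutrophil markers was 17.8 to 80.8 CPM in PBS, 15.1 to 74.4 in AAV-GFP and 64.0 to 1936 in AAV-miR-34b/c, and 3 of the 3 tested were higher between the vectors, with *Ly6g* at 0 in PBS only. The AAV-miR-34b/c libraries that stood low for *Cdkn1a* and *Trp53inp1*, 5 and 7, had the lowest neutrophil sums of their group, 67.4 and 64.0 CPM, and libraries 1 and 2 the highest, 1936 and 1920 CPM. The orders were not the same, since library 6, the highest for *Cdkn1a* at 240 CPM, had a neutrophil sum of 142 CPM, and libraries 1 and 2 had 93.9 and 89.0 CPM of *Cdkn1a*. Of 14 stellate cell markers, whose sum was 423 to 672 CPM in PBS, 457 to 589 in AAV-GFP and 297 to 619 in AAV-miR-34b/c, 4 rose and 1 fell of 12 in AAV-GFP against PBS and 2 of 10 fell between the vectors. Of 14 macrophage markers (591 to 1089, 521 to 826 and 714 to 959 CPM) 1 rose and 5 fell of 14 in AAV-GFP against PBS, and 2 rose and 1 fell of 13 between the vectors. Endothelial sums were 345 to 397, 336 to 389 and 376 to 495 CPM, with 1 of 11 higher between the vectors, and cholangiocyte sums were 23.6 to 45.0, 62.0 to 109 and 54.5 to 126 CPM, with 2 of 3 higher in AAV-GFP against PBS. Lymphocyte sums were 24.8 to 58.8, 31.8 to 84.1 and 40.4 to 117 CPM, with 1 of 2 lower in AAV-GFP against PBS. Among the cholangiocyte markers *Cftr* was at 0 in PBS, and among the lymphocyte markers *Cd8a* and *Cd79a* were at 0 in PBS and *Cd79a* in AAV-miR-34b/c. For AAV-miR-34b/c against PBS, all 3 neutrophil markers tested were higher, as were 3 of 13 hepatocyte, 1 of 14 macrophage, 1 of 11 endothelial and 1 of 3 cholangiocyte markers. In that comparison 2 hepatocyte, 2 macrophage and 1 endothelial marker were lower, and none of 10 stellate cell and 2 lymphocyte markers passed the test. As shares of the markers tested, the calls in AAV-GFP against PBS were 41.7% of stellate cell, 42.9% of macrophage and 7.69% of hepatocyte markers, against 12.7% of all genes. Between the vectors they were 20%, 23.1% and 7.69%, and 9.09% of endothelial markers, against 3.36%. For AAV-miR-34b/c against PBS they were 0%, 21.4%, 38.5% and 18.2% in the same order, against 21.9%. The other 3 lists had at most 3 markers tested. These calls were not the same in other fits, where the share of all genes changed also differed. In AAV-GFP against PBS 1 of 11 stellate cell markers rose and none fell on the low mitochondrial side, and 1 rose and 1 fell of 14 macrophage markers. In that fit 1.88% of all genes changed. With the close pairs summed 1 of 12 stellate cell markers rose, and again 1 macrophage marker rose and 1 fell, where 2.26% of all genes changed. Between the vectors 1 of 11 stellate cell markers rose and none fell on the low side (median log2 fold change -0.02), whereas 4 of 11 fell on the high side (-1.04). Of all genes, 2.99% changed between the vectors on the low side and 6.58% on the high side. Neutrophil markers were higher on both sides, 5 of 5 tested on the low and 2 of 2 on the high side. The part of these cell types in the differences of the p53 target genes was not tested.

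For each gene with a difference past the threshold, the genes most like it in their deviations from the group means over the 19 libraries were listed among 7152 genes with a mean above 3 log2 CPM. Those for *Cdkn1a* were *Chka* (Pearson's r = 0.839), *Caprin1* (0.821) and *Ypel2* (0.818). For *Trp53inp1* they were *Rasgrp2* (0.866), *Cdo1* (0.828) and *Clpx* (0.806), and for *Gdf15* they were *Atoh8* (0.854), *Ip6k2* (0.833) and *Wdr70* (0.826). *Mdm2* was most like *Nagpa* (0.742), *Supv3l1* (0.706) and *Usf2* (0.703), and *Ccng1* most like *Arl3* (0.888), *Btf3* (0.874) and *Slc35b2* (0.870). No p53 target gene appeared in these lists, which describe these libraries and their close pairs.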

How the data were processed

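The authors deposited 1 table of raw counts per Ensembl gene for 19 libraries of 3′ end sequencing. Per the labels and methods, reads were aligned with STAR to mm10 within the provider's pipeline. Not given in the sources used here are the annotation release, whether strand was used and whether molecular identifiers were, so counts may hold PCR duplicates. Symbols came from GENCODE vM21 by identifier (30934 of 31053 genes), and 214 of the 216 list entries matched a single row. *Gm45808* overlaps *Bax* (0 counts) and *Gm12981* overlaps *Sesn2* (1 count).

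Each comparison was fitted with edgeR 4.0.16 (R 4.3.3) on the counts of its 2 groups (TMM, filterByExpr at min.count 10 and min.total.count 15, quasi-likelihood test) and adjusted by Benjamini-Hochberg over all genes tested. The threshold was an adjusted p of 0.05. Levels are CPM over all 19 libraries, and log2 CPM used a prior count of 2. Exact two-sided permutation tests (30 in all) used log2 CPM, and only those of *Phlda3* are printed. The fit was tested on simulated data with 200 genes changed. It recovered 51% to 54% of 2-fold and 86% to 93% of 4-fold changes, with 7 to 12 false calls. A gene that did not pass the test can therefore still differ by 2-fold. The genes named are the 10 p53 targets, at most 6 regulators, at most 4 changed genes of each other list per comparison, and the 3 genes most like each changed p53 target. In the lists of cell types genes were named only for being at 0, and 1 gene of these lists is not reported here by name. The genes and lists were chosen with earlier results of these data known. Alternatives were no filter, at least 10 counts in every library, DESeq2 size factors, library size only, DESeq2 1.42.0, limma-voom 3.58.1, all 3 groups in one fit, a replicate block, close pairs summed and each library left out. After the data had been seen, fits without the libraries beside PBS on the first principal component and fits within libraries under or over 7% mitochondrial counts were added, and the other lists were counted under each of these settings. If replicates share an animal, p-values measure technical spread only. Sequences are from RefSeq (GRCm38.p6), and UTRs from GENCODE vM21.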

Additional observations from a re-analysis of the deposited data

How the results depend on the processing

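Of the calls, those of *Cdkn1a*, *Trp53inp1* and *Gdf15* in AAV-GFP against PBS passed the threshold in every alternative that could test them and in all 12 fits without 1 library. At least 10 counts in every library left *Cdkn1a* untested, and 2 of the 6 p53 target genes tested changed, where 14.1% of all genes did. The *Mdm2* call held in 5 of 11 alternatives (adjusted p 0.0110 to 0.318), *Gdf15* between the vectors in 10 of 12 (0.00102 to 0.167) and all 14 omissions, *Ccng1* against PBS in 8 of 11 (0.00117 to 0.711) and *Cdkn1a* in AAV-miR-34b/c against PBS in 9 of 10 (0.0505 with limma-voom). *Gdf15* in AAV-miR-34b/c against PBS, which was not called, passed in 4 of 11. The causes were not tested. Between the vectors 2 p53 target genes changed by library size only, with limma-voom, without the libraries beside PBS (of 8 tested, where 6.74%, 8.79% and 8.25% of all genes changed) and within the libraries over 7% mitochondrial counts (of 7, 6.58%), namely *Gdf15* and *Trp53inp1*, or under 7% (of 8, 2.99%), namely *Gdf15* and *Cdkn1a*. In this comparison 0 changed with all 3 groups in one fit (of 8, 4.4%) or close pairs summed (of 9, 0.832%). In AAV-miR-34b/c against PBS 1 changed with at least 10 counts in every library (of 5 tested, 25.3% of all genes) or close pairs summed (of 8, 3.12%), and 3 with no filter (of 10, 11.7%), by library size only (of 8, 25.3%) and without the libraries beside PBS (of 7, 42.6%). Omission of 1 library gave 3 to 4, 1 to 1 and 1 to 3 changed genes in AAV-GFP against PBS, between the vectors and in AAV-miR-34b/c against PBS.

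Counts of changed genes over all genes were, in AAV-GFP against PBS, 2687 with limma-voom, 3088 with the replicate block, 227 with close pairs summed, 2880 without the libraries beside PBS, 180 within the low mitochondrial libraries and 689 to 1859 without 1 library. Between the vectors they were 624 by library size only, 542 with DESeq2, 813 with limma-voom, 142 with the replicate block, 87 with close pairs summed, 767 without the libraries beside PBS, 614 within the high mitochondrial libraries and 209 to 344 without 1 library. In AAV-miR-34b/c against PBS they were 3839 with limma-voom, 922 with the replicate block, 331 with close pairs summed, 3878 without the libraries beside PBS, 642 within the low mitochondrial libraries and 1267 to 2695 without 1 library. Library size only moved the median of all genes to -0.20 between the vectors and -0.13 in AAV-miR-34b/c against PBS, and lowered the share of higher calls from 57.9% to 19.1% and from 55.5% to 31.1%.

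No changed gene of the 10 reversed. *Cdkn1a* between the vectors was -0.17 with limma-voom. *Zmat3* was -0.0095 by library size only and -0.76 within the low mitochondrial libraries between the vectors, and 0.051 with limma-voom and 0.072 without the libraries beside PBS in AAV-miR-34b/c against PBS. *Sesn2* was 0.043 within the low mitochondrial libraries between the vectors, and 0.021 with close pairs summed and 0.17 within the low mitochondrial libraries in AAV-miR-34b/c against PBS. *Bax* was 0.043 within the high mitochondrial libraries between the vectors. Without 1 library, *Sesn2* ran from -0.22 to 0.40 in AAV-GFP against PBS and from -0.41 to 0.21 in AAV-miR-34b/c against PBS, and *Zmat3* from -0.026 to 0.28 between the vectors and from -0.34 to 0.0498 in AAV-miR-34b/c against PBS. Libraries with the same replicate number did not deviate together (r above 0.1 in 2 of 5, 2 of 7 and 1 of 5 pairs), so the replicate block pairs only numbers; under it *Ccng1* in AAV-miR-34b/c against PBS had an adjusted p of 0.0917.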
